A study of Drosophila melanogaster with 12 samples.

Results

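*CG7542*, *CG18179*, *CG18180*, *CG8329*, *CG10477* and *yip7* are genes for secreted serine proteases of the fly midgut that belong to the chymotrypsin-like family and carry no Jonah name, the name given to a large group of gut proteases. The 6 genes were chosen by name, but with their measured differences in both comparisons of these data already known, including the very low level of *CG7542* in mutants. Their differences between groups are therefore given as a description, with no p-value, and support nothing. A statement that any of them was called, or passed or missed a threshold, only places it by the rule used for all genes. Such a label is no evidence for its difference. Of the 6 genes, 5 have a row among the 9981 genes of the deposited tables. *CG8329* has none and was not analysed here. All 6 lie on chromosome arm 3L, and the RefSeq gene table (Release 6) lists for each a synonym with the prefix SP, which is used for fly serine proteases; for *yip7*, first named as a protein that binds Yippee, it also lists one with SPH, used for serine protease homologs. Whether each encoded protein has chymotrypsin specificity was not tested.

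Serine proteases of this family are made in enterocytes, the absorptive cells of the midgut, and are secreted into the gut lumen as inactive zymogens that are activated by cleavage. Trypsins cut proteins after basic residues, and chymotrypsins after large hydrophobic residues. Between them they break dietary protein into the peptides that peptidases and the epithelium then take up.

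Total RNA of dissected adult intestines was sequenced in 2 experiments, both in the w1118 strain, and the level of a gene is given as a normalized count, the number of reads after the authors' division by a factor for library size. In the first, *myo1A-GAL4*, an enterocyte driver, expressed RNAi against *dMPC1* or, as the control, against mCherry for 7 days in adults of 4 to 5 days, with *Tub-GAL80ts* holding the RNAi off before adulthood. In the second, mutants transheterozygous for the deletion alleles *dMPC1*[1] and *dMPC1*[2], which remove the gene's function in the whole animal, were compared with controls homozygous for a chromosome from which the P element had been precisely removed, all 7 to 10 days old. *dMPC1* encodes a subunit of the mitochondrial pyruvate carrier, which brings pyruvate into the mitochondrial matrix. Of 12 labelled libraries, 8 entered the analysis: precise excision replicate 2, *dMPC1* mutant replicates 1 and 2, all 3 of *myo1A > dMPC1-RNAi*, and replicates 1 and 3 of *myo1A > mCherry-RNAi*.

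Each library held between 7362983 reads in genes (*dMPC1* mutant replicate 2) and 21918521 (*dMPC1* mutant replicate 1). *Mpc1*, the targeted gene, stood at 2936 to 3114 normalized counts in the mCherry controls and at 803 to 841 in *myo1A > dMPC1-RNAi* intestines, and at 1997 in the precise excision control and 5.31 and 13.7 in mutants, so the libraries matched their labels. The library *myo1A > dMPC1-RNAi* replicate 1 held 291 normalized counts of egg chamber markers in sum, against 20.8 to 85.0 in the other 7 libraries. Of the 6 enterocyte markers listed, 4 had a row, and their summed level was 45036 to 45553 normalized counts in mCherry controls and 33737 to 36940 in *myo1A > dMPC1-RNAi* intestines, with 1 of the 4 called lower, *mag*, a gene for a gut lipase (log2 −2.79; the call was lost without mCherry replicate 1, at −2.79, or 3, at −2.80). The fall of the sum came from *mag*, whose mean went from 17832 in mCherry controls to 2681 after RNAi. Of the rest, *Myo61F* went from 19853 to 24042, *nub* from 1950 to 2810 and *Myo31DF* from 5661 to 5283. The sum of the 6 markers of stem cells and enteroblasts was 701 and 768 in the mCherry controls and 1712 to 1764 after *dMPC1* RNAi, with 4 of the 6 called higher. In the precise excision control and the mutants the enterocyte sum was 41775, 36061 and 37942, and the progenitor sum 1358, 1145 and 753, with no marker of either list called. Markers of other tissues also moved: those of fat body (5 of 7 listed had a row) summed to 26135 and 34118 in mCherry controls and 15231 to 16820 after RNAi (2 called lower, 1 higher), and to 51208 in the precise excision control and 10604 and 11568 in mutants (4 lower, 1 higher). Visceral muscle markers summed to 22675 in the precise excision control and 11964 and 11806 in mutants (2 of 6 called lower), and to 11215 to 14848 in the RNAi experiment (none called). Enteroendocrine markers summed to 3527 and 3614 in mCherry controls and 4756 to 5494 after RNAi (2 of 6 called higher), and to 2675 in the precise excision control and 1865 and 2328 in mutants (none called). Malpighian tubule markers (5 of 6 listed had a row) went from 15726 and 17549 to 7851 to 10503 after RNAi (1 called lower), and stood at 12085 in the precise excision control and 16655 and 19683 in mutants (1 called higher). Hemocyte markers (4 of 5 had a row) summed to 884 in the precise excision control and 273 and 397 in mutants (1 called lower). Several of these lists moved in different directions in the 2 experiments, and their part in the protease values below was not tested. In RNA from whole intestines, fewer enterocytes and less RNA per enterocyte cannot be told apart.

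The genes spanned more than 2 orders of magnitude in level. Per kilobase of exon, from the exon lengths of annotation BDGP6.54, *yip7* had the highest level in the mCherry controls, at 373600 ± 4093 normalized counts per kilobase (SD, n = 2). *CG18180* followed at 86615 ± 8090, *CG7542* at 29788 ± 285, *CG10477* at 3207 ± 336 and *CG18179* at 1440 ± 190, and no neighbours in this order overlapped. In *myo1A > dMPC1-RNAi* intestines (n = 3) *yip7* was still first, at 171077 ± 44608 per kilobase, but *CG7542*, at 17289 ± 553, stood above *CG18180*, at 12603 ± 1218, and *CG10477* and *CG18179* were at 6407 ± 266 and 129 ± 12.5. In the single precise excision library *CG18179*, at 5988 per kilobase, stood above *CG7542*, at 4566, and *CG10477*, at 2860. In the mutants (n = 2) *CG7542* was the lowest of the 5, at 21.2 ± 0.63 normalized counts per kilobase, below *CG18179* at 625 ± 137. Only *yip7* kept its rank, first, in all 4 groups.

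**Figure D1:**
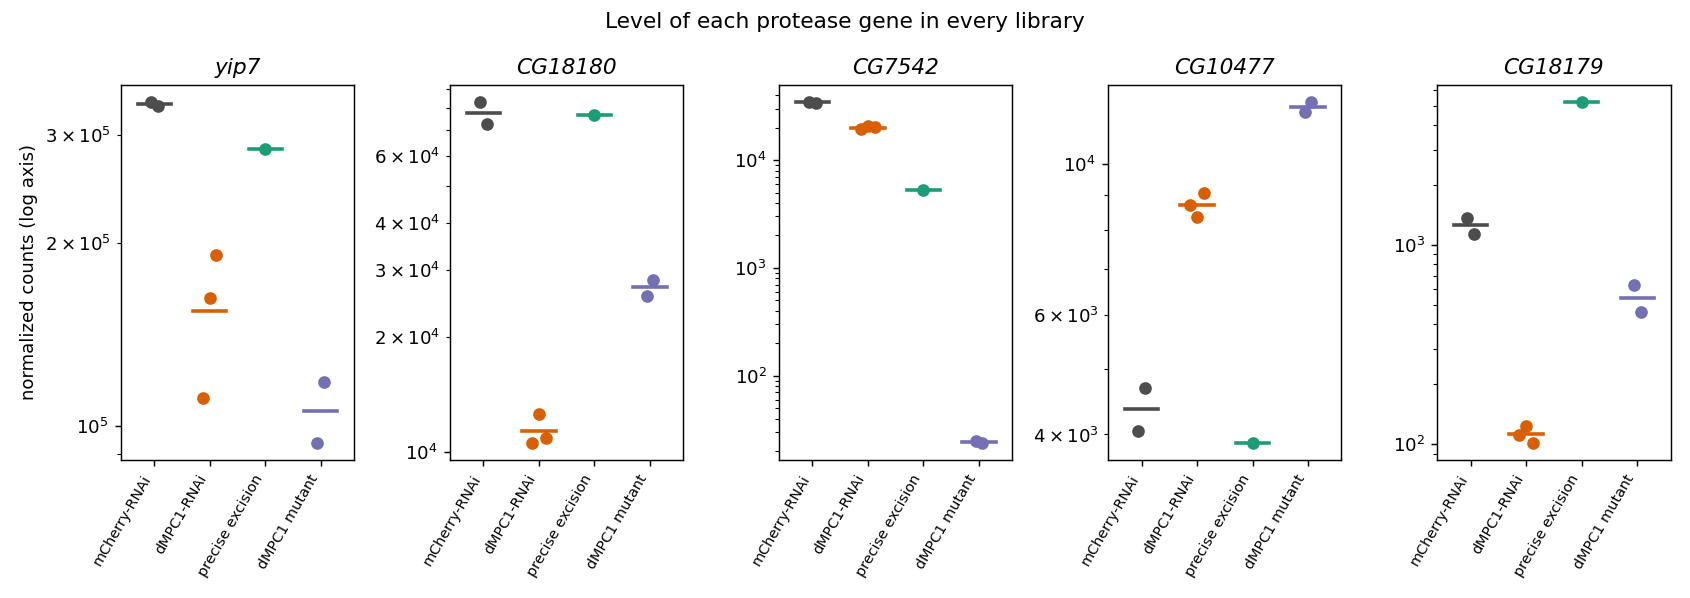
Level of each of the 5 genes in every library, in normalized counts on a log axis whose range differs between panels; each point is a library and each bar the mean of its group. The *dMPC1*-deficient libraries lie below their own controls for *yip7*, *CG18180*, *CG7542* and *CG18179* and above them for *CG10477*, and *CG7542* in mutants lies at 25.0 and 23.9.

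The reads of the 5 genes together made up 2.96% and 2.94% of all reads in genes in the mCherry controls, and 1.25%, 1.65% and 1.89% in *myo1A > dMPC1-RNAi* replicates 1, 2 and 3. They made up 2.75% in the precise excision control and 1.14% and 1.26% in mutants. The 95% Wilson intervals of these shares reached at most 0.00897 percentage points to either side, and cover counting error only. Most of these reads came from *yip7* in every library, so the sum chiefly follows that gene: *yip7* alone took 2.17% and 2.20% in mCherry controls and 0.806% and 0.937% in mutants.

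**Figure D2:**
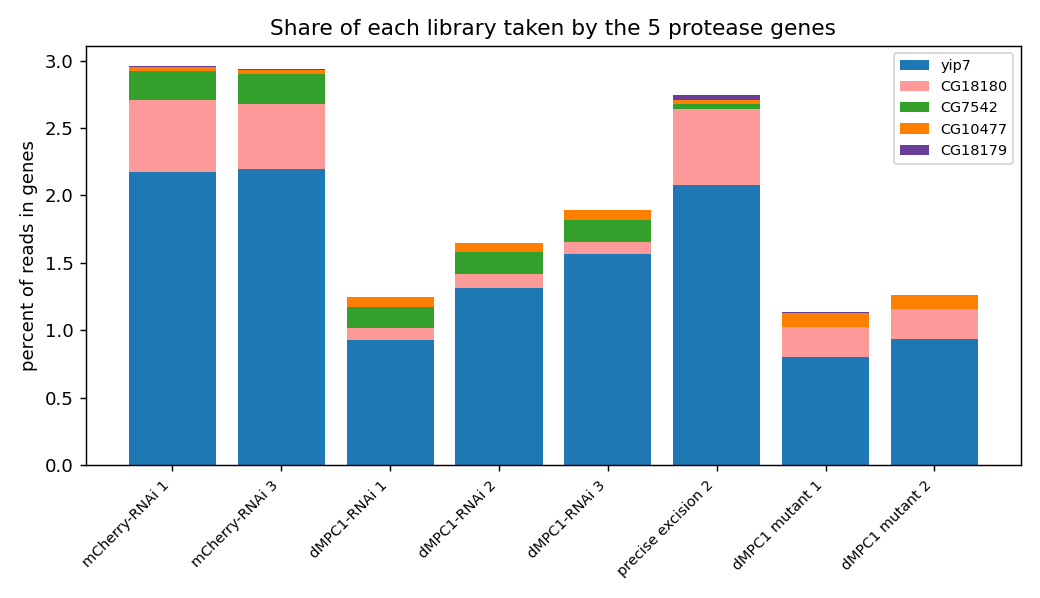
Percent of all reads in genes that fell in each of the 5 genes, stacked, for each of the 8 libraries. The 3 control libraries hold 2.75% to 2.96% and the 5 *dMPC1*-deficient libraries 1.14% to 1.89%, with *yip7* the largest portion in each.

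After enterocyte *dMPC1* RNAi, 3 of the 5 genes (*CG18179*, *CG18180* and *CG7542*) fell past the thresholds, *CG10477* rose, and *yip7* did not pass. The call requires an adjusted p of at most 0.01 in limma and a log2 difference of at least 0.6 in size. Over all genes, 13.7% of the 8921 tested were called, 7.03% higher and 6.71% lower. With libraries scaled to all reads in genes the split was 1724 higher and 272 lower, against 627 and 599. Since the genes were listed with these results known, nothing is read from their 4 of 5 against this background. The libraries of the 2 groups did not overlap for any of the 5. The share of all genes without overlap was not counted, so nothing is read from this either. The median of the 5 log2 differences was −1.16, and that of all genes tested −0.01.

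*dMPC1* mutants showed the same directions as a set: *CG7542*, *CG18179* and *CG18180* were called lower, *CG10477* was called higher, and *yip7* missed the threshold. Of the 8794 genes tested, 3.70% were called, 1.31% higher and 2.39% lower (115 and 210 genes, or 304 and 214 with libraries scaled to all reads in genes), and again nothing is read from the 4 of 5. The median of the 5 log2 differences was −1.51, and that of all genes was 0.01. For each of the 5, both mutant libraries lay on the same side of the control. The share of all genes for which this held was not counted, so nothing is read from it. With a single control library here, its spread was taken to be that of the mutants, drawn strongly toward that of other genes of like level (1 residual degree of freedom, prior 6.3). Without a filter on low values none of the 5, and no gene in all, was called by limma in mutants, with 1842 of the 9913 genes at an unadjusted p under 0.05. Over the 8794 genes that passed the filter, edgeR called 132 genes and 3 of the 5 (*CG7542*, *CG18179* and *CG10477*), and DESeq2 395 genes and all 5. The p-values behind these calls rest only on the spread between these libraries, partly pooled over genes. Each library was made from a separate sample as labelled.

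**Figure D3:**
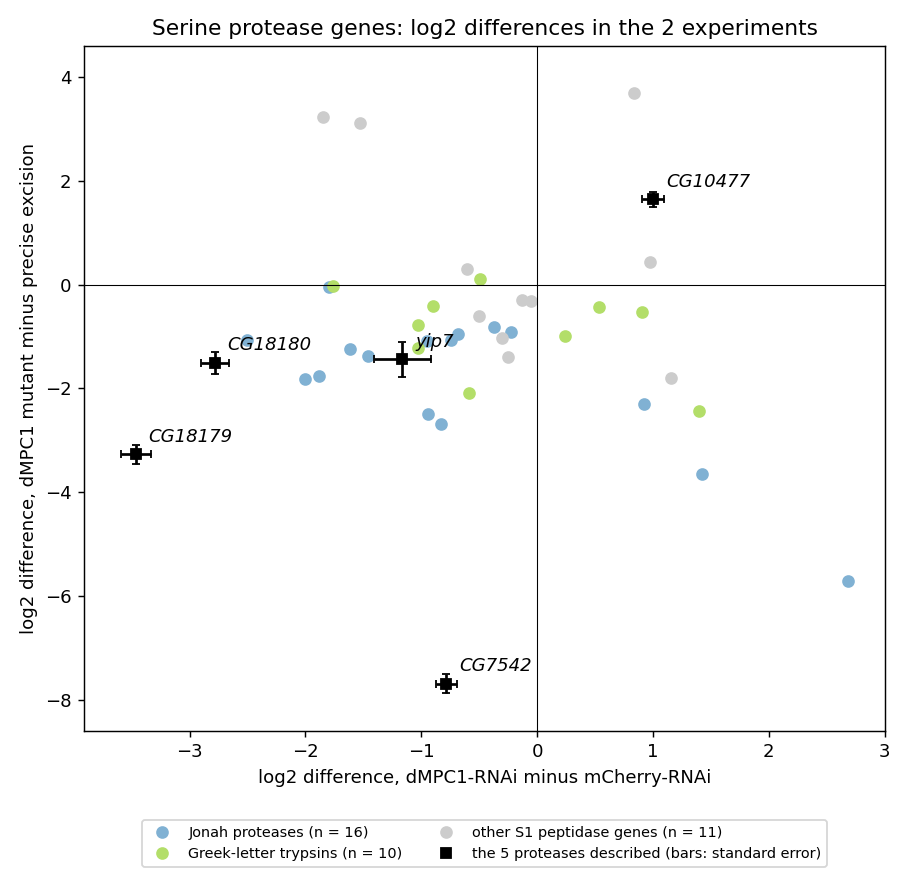
Log2 difference in normalized counts after enterocyte *dMPC1* RNAi (horizontal axis) and in *dMPC1* mutants (vertical axis), for the 5 genes as black squares with standard errors and for other serine protease genes as dots. *CG7542* lies at −0.79 and −7.69, and *CG10477* is the one black square above 0 on both axes.

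*yip7*, the most abundant of the 5, had 340351 and 335119 normalized counts in the mCherry controls and 111176, 161953 and 190831 in *myo1A > dMPC1-RNAi* replicates 1, 2 and 3. All 3 lay below both controls, and they were spread over a wider range than the controls. The log2 difference was −1.16 (SE 0.24), or 2.18-fold lower by the means of 154653 ± 40326 (SD, n = 3) and 337735 ± 3700 (n = 2). It did not pass the threshold, but it did without replicate 1 of *myo1A > dMPC1-RNAi*, the library with the lowest *yip7* level and the egg chamber markers, where the log2 difference was −0.94. It also passed in edgeR, in DESeq2 and in 1 limma fit of all libraries (log2 differences between −1.16 and −1.10).

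In the second experiment *yip7* had 285110 normalized counts in the precise excision control and 93940 and 117961 in mutants. Both mutant libraries were lower, by 2.69-fold on average (log2 −1.44, SE 0.34). This missed the threshold, and passed it in DESeq2 (log2 −1.44) and in limma with libraries scaled to all reads in genes (−1.26). The control libraries of the 2 experiments stood close together for *yip7*, the precise excision library at 0.844 of the mCherry mean, and the difference between the effects in the 2 experiments was −0.28 (SE 0.40).

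*CG18180* stood at 83195 and 72886 normalized counts in the mCherry controls and at 10578, 12611 and 10878 in *myo1A > dMPC1-RNAi* intestines. Every knockdown library lay far below both controls. The fall was 6.87-fold (log2 −2.78, SE 0.12), from a mean of 78040 ± 7289 (SD, n = 2) to 11356 ± 1097 (n = 3). Over the 13 alternatives the log2 difference ran from −2.88 to −2.44.

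In the precise excision control *CG18180* stood at 76909 normalized counts, and in mutants at 25739 and 28363. The mutant libraries were close to each other and 2.84-fold below the control (log2 −1.51, SE 0.22). The call in mutants was lost with TMM factors (log2 −1.50), in edgeR (−1.50), without a filter on low values, and without *dMPC1* mutant replicate 1 (−1.44) or replicate 2 (−1.58). The controls of the 2 experiments were at nearly the same level, in a ratio of 0.986 (precise excision to mCherry mean).

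*CG18179* had the lowest count of the 5 in the mCherry controls, with 1370 and 1136 normalized counts. After *dMPC1* RNAi it had 112, 124 and 102, all far below the controls. The log2 difference of −3.46 (SE 0.13) was the largest of the 5 in this experiment, 11.1-fold by the means of 1253 ± 165 (SD, n = 2) and 113 ± 10.9 (n = 3).

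The precise excision library held 5210 normalized counts of *CG18179*, 4.16-fold more than the mean of the mCherry controls. Mutants had 628 and 460, both below the precise excision control and below each mCherry control. The log2 difference in mutants was −3.27 (SE 0.19), 9.57-fold lower. The drop relative to its own control was thus similar in both experiments, with a difference between the effects of 0.19 (SE 0.26), which changed sign to −0.03 without *dMPC1* mutant replicate 1. The levels were not similar, as every mutant library held more *CG18179* than any knockdown library.

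*CG7542* showed the widest range of the 5. It stood at 34639 and 34172 normalized counts in the mCherry controls and at 19269, 20521 and 20116 in *myo1A > dMPC1-RNAi* intestines. Replicates were close and the groups well apart, but the fall was the smallest called among the 5, 1.72-fold (log2 −0.79, SE 0.09), from a mean of 34406 ± 330 (SD, n = 2) to 19969 ± 639 (n = 3). The call was lost without mCherry replicate 1 (log2 −0.78) and without mCherry replicate 3 (−0.80). It was also lost when libraries were scaled to all reads in genes (−0.44), an alternative chosen after seeing the data that moved the median of all genes to 0.34; relative to that median *CG7542* was still lower.

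In the precise excision control *CG7542* had 5273 normalized counts, 6.52-fold below the mCherry mean, and in mutants it had 25.0 and 23.9. The mutant levels rest on 47 and 14 reads, against 4901 reads in the precise excision library. Exact Poisson 95% intervals were 18.4 to 33.2 normalized counts for mutant replicate 1 and 13.1 to 40.2 for replicate 2, so the mutants could not be told apart from each other by counting error. Both lay above the level of 3 reads in their library, 1.59 and 5.13 normalized counts. The gene was 216-fold lower than in the control (log2 −7.69, SE 0.18). The difference between the effects in the 2 experiments was −6.91 (SE 0.12) on the log2 scale, and ran from −7.08 to −6.70 over the 12 alternatives.

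*CG10477* went the other way. It had 4042 and 4688 normalized counts in the mCherry controls and 8721, 8358 and 9082 in *myo1A > dMPC1-RNAi* intestines. Each knockdown library lay above both controls, 2.00-fold by the means of 8720 ± 362 (SD, n = 3) and 4365 ± 457 (n = 2; log2 1.00, SE 0.10). The call was lost without mCherry replicate 1 (log2 0.89). With libraries scaled to all reads in genes the difference was 1.35.

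In the precise excision control *CG10477* had 3892 normalized counts, 0.892 of the mCherry mean, and in mutants it had 11920 and 12353. The mutants were close to each other and had the highest levels of all 8 libraries, 3.12-fold above their control (log2 1.64, SE 0.15). The difference between the effects in the 2 experiments was 0.64 (SE 0.16).

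The experiments were compared directly by taking the RNAi effect from the mutant effect in 1 limma fit of all 8 libraries. The rule for all genes here was an adjusted p of at most 0.01. By it *CG7542* (lower in mutants) and *CG18180* (less reduced in mutants, by 1.27 with SE 0.21) were called. *CG18179*, *CG10477* and *yip7* were not. Of all 8916 genes tested, 8.71% were called, and nothing is read from the 2 of 5. The call for *CG18180* was lost without mCherry replicate 1 (1.18) or 3 (1.37), *myo1A > dMPC1-RNAi* replicate 3 (1.24), or *dMPC1* mutant replicate 1 (1.34) or 2 (1.20). The experiments differ in genotype, age, tissues affected and RNAi regime, which cannot be told apart. For its counts of dividing cells with this driver the study describes a shift to a higher temperature, so temperature may differ too.

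The 2 control groups also differed for some of these genes. *CG7542* differed by −2.71 on the log2 scale (precise excision minus mCherry) and *CG18179* by 2.06, whereas *CG18180*, *CG10477* and *yip7* differed by −0.02, −0.16 and −0.24. Over the 8916 genes compared, the difference lay within 1 log2 unit for 88.1% and within 2 for 96.2%, and the median was near 0. With 1 precise excision library these differences have no test.

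The members were also set beside the genes next to them, by gene order in the RefSeq table. *CG7542* lies between *Jon74E*, a Jonah protease gene, and *CycT*, which encodes a cyclin of the transcription elongation factor P-TEFb. *Jon74E* had 98813 and 90985 normalized counts in the mCherry controls, 29219, 26763 and 25978 after *dMPC1* RNAi, 30057 in the precise excision control, and 26395 and 31949 in mutants. It fell after RNAi by 1.80 on the log2 scale (SE 0.11, limma adjusted p = 2.08e-04), while in mutants its difference was −0.05 (SE 0.22, adjusted p = 0.925) and the control lay between the mutants. The neighbours thus moved in different ways: after RNAi *Jon74E* changed more than *CG7542*, and in mutants *CG7542* was 216-fold lower with *Jon74E* at its control level. The ratio of *Jon74E* to *CG7542* counts was 2.66 to 2.85 in mCherry controls, 1.29 to 1.52 after RNAi, 5.70 in the precise excision control, and 1057 and 1334 in mutants. *CycT*, on the other side, did not pass the threshold in either experiment (log2 −0.37 with adjusted p = 0.0274 after RNAi, and −0.07 with adjusted p = 0.803 in mutants).

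*CG18179* and *CG18180* are adjacent, on the same strand, each with a single exon block of 870 and 901 bases, and with *CG8329* they lie within an intron of *fry*, a long gene on the opposite strand that acts in cell shape. Their levels over the 8 libraries went together, with a Pearson correlation of 0.94 on the log2 scale (n = 8 libraries of 4 groups, a description only). Their ratio was nevertheless not constant. *CG18180* had 60.7 and 64.1 times the count of *CG18179* in mCherry controls, 94.8 to 107 times after RNAi, 14.8 times in the precise excision control, and 41.0 and 61.6 times in mutants. The sources used here do not give whether counting used strand, nor how reads that match more than 1 related gene were treated, so reads of *fry* and of the genes within it may not be told apart. *fry* itself had 2635 and 2808 normalized counts in mCherry controls, 2677 to 3584 after RNAi, 3874 in the precise excision control and 2643 and 2704 in mutants, and did not pass in either experiment (log2 0.15, adjusted p = 0.417, and −0.53, adjusted p = 0.0479, limma). *CG16717*, the next measured gene after *CG18180*, had log2 differences of −0.45 (adjusted p = 0.0768) and 0.67 (adjusted p = 0.0475).

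**Figure D4:**
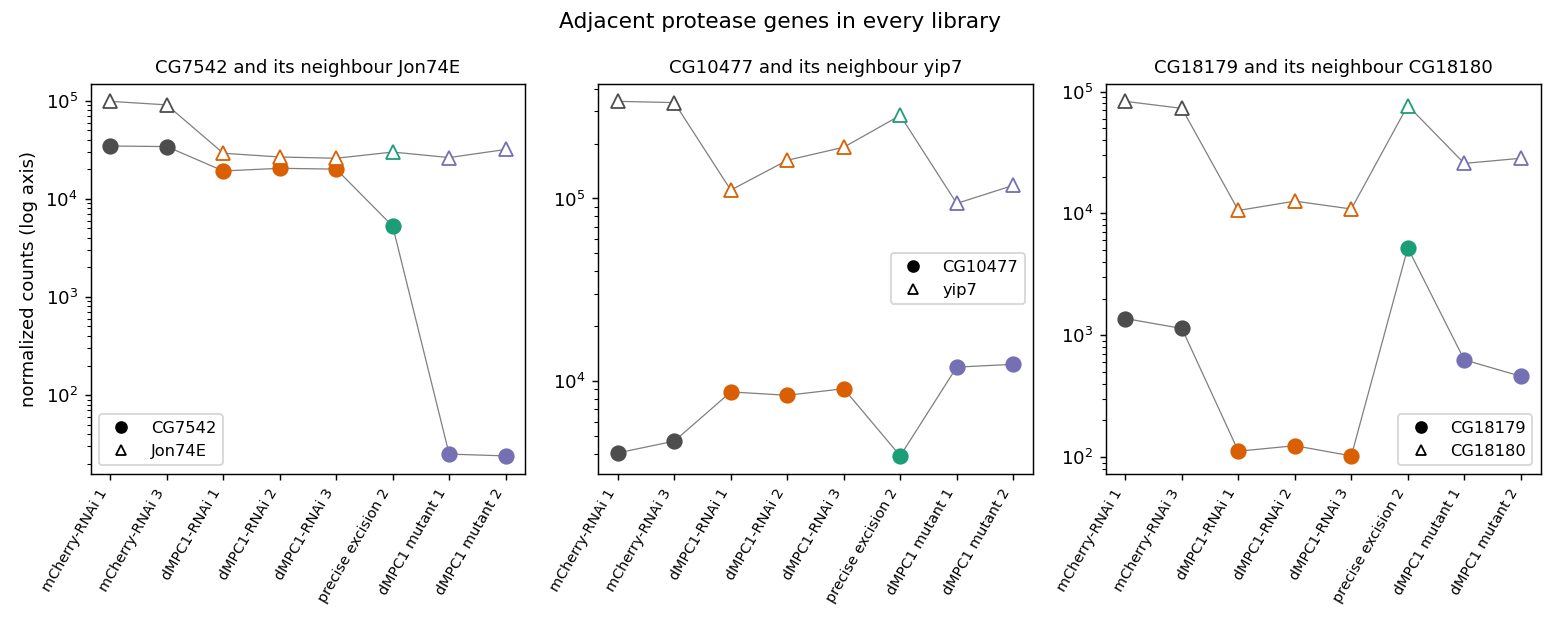
Normalized counts (log axis) in each of the 8 libraries for 3 pairs of adjacent genes, one gene of a pair as filled circles and the other as open triangles, coloured by group. In mutants *CG7542* lies near 24 while *Jon74E* stays near its control at 30057; *CG10477* and *yip7* move in opposite directions; *CG18179* and *CG18180* move together.

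*CG10477* and *yip7* are also adjacent, on opposite strands, and each has 2 exon blocks. Over the 8 libraries their levels ran opposite, with a Pearson correlation of −0.93 (n = 8 libraries of 4 groups, a description only). *yip7* had 71.5 to 84.2 times the count of *CG10477* in the 3 control libraries, 12.7 to 21.0 times after RNAi, and 7.88 and 9.55 times in mutants. *CG10479*, the first measured gene on the far side of *CG10477*, was low, with 22.2 to 48.5 normalized counts in the 8 libraries, and did not pass in either experiment (log2 0.10, adjusted p = 0.724, and −0.60, adjusted p = 0.423).

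On the far side of *yip7* the measured genes in order are *CG6462*, another serine protease gene, and the Jonah genes *Jon65Aiv*, *Jon65Aiii*, *Jon65Aii* and *Jon65Ai*. *CG6462* was at 85.5 to 157 normalized counts and did not pass in either experiment (log2 −0.13, adjusted p = 0.637, and −0.30, adjusted p = 0.464). *Jon65Aiv*, the most abundant of these genes by count, had 424195 and 422473 in mCherry controls, 200756, 289461 and 314860 after RNAi, 391068 in the precise excision control, and 178198 and 228954 in mutants. Its log2 differences of −0.68 (adjusted p = 0.0603) and −0.95 (adjusted p = 0.206) did not pass in limma and passed in DESeq2 (−0.65 and −0.95). Its groups, like those of *yip7*, did not overlap in either experiment. The share of all genes without overlap was not counted, so nothing is read from this. The count of *Jon65Aiv* was 1.25 to 1.37 times that of *yip7* in the 3 controls and 1.65 to 1.94 times in the 5 *dMPC1*-deficient libraries. *Jon65Aii* fell in both experiments, by 2.50 (adjusted p = 3.56e-04) and by 1.08 (adjusted p = 0.00695) on the log2 scale, the second call being lost in 6 of 9 alternatives: without *dMPC1* mutant replicate 1 (−1.02) or 2 (−1.13), with TMM factors (−1.07), in edgeR (−1.07), without a filter on low values, and with all libraries in 1 fit. *CG10477* was the only 1 of these 7 genes with a positive difference in either experiment, except that *CG6462* turned to 0.06 after RNAi without *myo1A > dMPC1-RNAi* replicate 1 and to 0.21 with libraries scaled to all reads in genes.

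**Figure D5:**
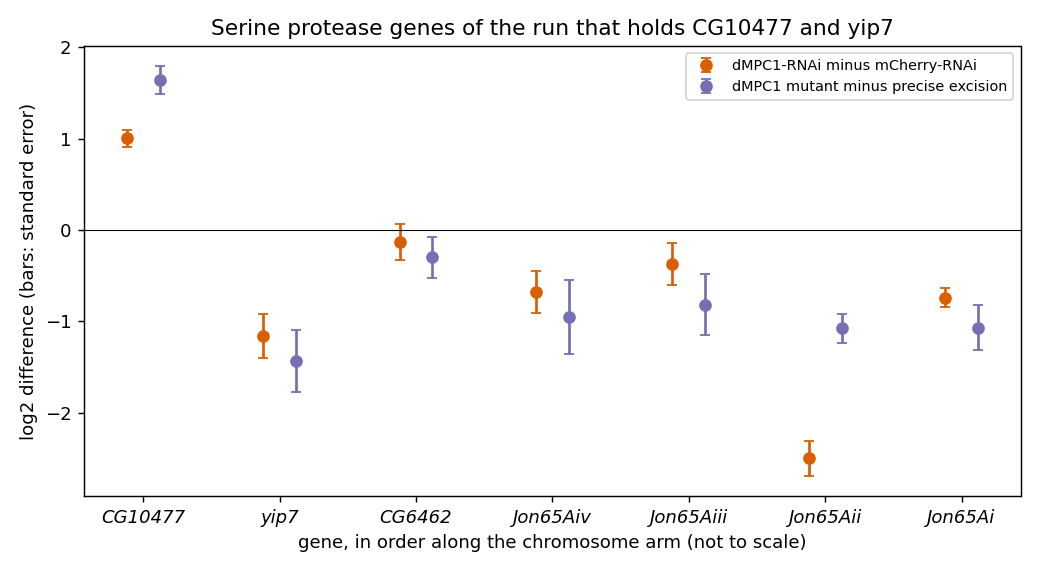
Log2 difference with standard error in each experiment for 7 serine protease genes in their order on chromosome arm 3L, not to scale. *CG10477* lies at 1.00 and 1.64 and its neighbour *yip7* at −1.16 and −1.44.

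The other serine protease genes of the gut give the setting, as counts and medians. Of the 16 Jonah genes, 9 were called lower and 2 higher after RNAi (median log2 difference −0.89), and 7 lower and 0 higher in mutants (median −1.31). Of 10 Greek-letter trypsins tested, 4 were lower and 1 higher after RNAi (median −0.54), and 4 lower and 0 higher in mutants (median −0.65). Of 11 further genes of the S1 family tested, none was called after RNAi (median −0.25) and 2 were lower in mutants (median −0.30). These lists were drawn up with earlier results known, and nothing is claimed as particular to them. *alphaTry*, one of the most abundant trypsin genes, did not pass in either experiment (log2 −0.49, adjusted p = 0.0399, and 0.12, adjusted p = 0.889). The second was −0.08 without *dMPC1* mutant replicate 2. *betaTry*, next to it in abundance, fell by 1.76 on the log2 scale after RNAi (limma adjusted p = 2.43e-04). In mutants *betaTry* differed by −0.03 (adjusted p = 0.973), and the sign changed in 2 of 9 alternatives. Closely related trypsin copies may share reads. *Jon99Cii*, among the 4 most abundant Jonah genes, fell by 2.01 on the log2 scale after RNAi (adjusted p = 2.43e-04) and differed by −1.82 in mutants (adjusted p = 0.0133), where it passed without *dMPC1* mutant replicate 2 (−2.13), in DESeq2 (−1.79), with libraries scaled to all reads in genes (−1.64) and with all libraries in 1 fit (−1.82).

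Likeness was measured as the Pearson correlation of log2 levels over the 8 libraries, among 8915 genes, and describes 8 libraries of 4 groups. The gene most like *yip7* was *bgm*, an acyl-CoA synthetase gene (0.993), followed by its near neighbour *Jon65Aiv* (0.990) and *CG31266* (0.983). *CG18180* was most like *CG30339* (0.991), *Edem2* (0.989) and *Sec16* (0.989), the last being genes of the endoplasmic reticulum. *CG18179* was most like *CG18788* (0.991), *CG9825* (0.985) and *CG32512* (0.970), and *CG10477* most like *esn* (0.975), *CG13901* (0.970) and *CG7142* (0.970). *CG7542* was most like *CG1824* (0.989), *CG7900* (0.988) and *CG42329* (0.986). A correlation does not measure the size of a change. The means of *CG1824* were 1513 in mCherry controls, 1433 after RNAi, 1358 in the precise excision control and 1121 in mutants. In the same order those of *Sec16* were 2329, 1676, 2269 and 2016, so both changed far less than the proteases they resemble. *CG7900* stood at 1791 and 1719 normalized counts in mCherry controls, 820 to 985 after RNAi, 125 in the precise excision control, and 3.19 and 5.13 in mutants, the order of groups that *CG7542* had. Among the 5 themselves the correlations ran from −0.93 (*CG10477* with *yip7*) to 0.94 (*CG18179* with *CG18180*), and *CG7542* was near 0 with *CG18179* (−0.11) and *CG18180* (0.04). Among the listed serine protease genes, the highest correlation of *CG10477* was 0.533, with *Ser8*, whereas each of the other 4 had one of at least 0.954. The lists do not hold every serine protease gene, so this covers the listed genes only. *CG7142* is not on them, and its means were 246 in mCherry controls, 329 after RNAi, 192 in the precise excision control and 433 in mutants.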

How the data were processed

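Intestinal RNA was read as 50-cycle single reads. The submitters' processing notes name Novoalign, DESeq and the dm3 build, and the study's methods name USeq. The sources used here give no versions, counting options or strandedness. Deposited tables hold, per gene and library, a normalized signal, the read count divided by a size factor by the authors. Dividing by the value of 1 read gave whole reads for 100% of values in each library (tolerance 0.001). Columns with the authors' fold changes (log2) and adjusted p-values were not used. Of the 12 labelled libraries, 4 were not analysed here.

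For each experiment, limma 3.58.1 (R 4.3.3; mean-variance trend) was run on the libraries of that experiment, with values as log2(normalized count + 1) and a minimum mean of 10. The pseudocount understates changes of low genes. Calls required an adjusted p (Benjamini-Hochberg, all genes tested) up to 0.01 and a log2 difference of at least 0.6; the difference between the experiments was an interaction in 1 fit of all 8 libraries, with no fold threshold. The mutant fit had 1 residual degree of freedom (prior 6.3). edgeR 4.0.16 and DESeq2 1.42.0 on the recovered reads, TMM factors, a pseudocount of 5, no filter, all libraries in 1 fit, a replicate block and leaving out each replicate were alternatives; scaling to all reads in genes was added after seeing the data. The fit was also run on simulated counts with the same spread beyond sampling noise in every gene and library. The scatter between the real libraries was uneven, so that run does not vouch for the calls. No 2 libraries of a group agreed within sampling noise.

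The text names the members, *Mpc1*, the 3 genes most correlated with each member, the adjacent genes, and genes from the 4 most abundant of each protease list. The rest of the run from *CG6462* to *Jon65Ai*, *Ser8*, *Jon66Ci*, *Jon66Cii*, *deltaTry*, *mag* and the other enterocyte markers were named after their values were seen. The members and lists were chosen with earlier results of these data known. Gene order and exon lengths come from RefSeq Release 6 and annotation BDGP6.54, used without coordinates because the files use dm3. Sequences were not used here.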

Additional observations from a re-analysis of the deposited data

Results flagged for a closer look

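For 5 genes named beside the proteases, leaving aside the targeted gene and the genes picked by likeness, the difference between experiments passed an adjusted p of 0.01 in limma (mutant effect minus RNAi effect, log2 scale). It was 1.75 (SE 0.21, adjusted p = 0.00193) for *Jon74E*, the neighbour of *CG7542*, and lost the call without mCherry replicate 1 (1.69) or replicate 3 (1.81). It was 1.73 (SE 0.26, adjusted p = 0.00437) for the trypsin gene *betaTry*, which may share reads with related copies; the call was lost without mCherry replicate 1 (1.67) or 3 (1.79), *myo1A > dMPC1-RNAi* replicate 2 (1.74) or 3 (1.71), or *dMPC1* mutant replicate 2 (1.53). It was −1.14 (SE 0.18, adjusted p = 0.00540) for the protease gene *CG11911*, and was kept in only 1 of the 7 fits that left out a library, the one without *myo1A > dMPC1-RNAi* replicate 1; the others gave −1.11 and −1.17 (without mCherry replicates 1 and 3), −1.17 and −1.07 (*myo1A > dMPC1-RNAi* replicates 2 and 3), and −1.09 and −1.18 (*dMPC1* mutant replicates 1 and 2). It was −2.95 (SE 0.42, adjusted p = 0.00346) for the protease gene *CG11912*, and the call was lost without mCherry replicate 1 (−2.86) or 3 (−3.04) or *dMPC1* mutant replicate 1 (−2.76) or 2 (−3.15). It was 2.52 (SE 0.45, adjusted p = 0.00773) for *mag*, an enterocyte marker; the call was lost in edgeR (2.46) and without mCherry replicate 1 (2.51) or 3 (2.53), *myo1A > dMPC1-RNAi* replicate 2 (2.49) or 3 (2.29), or *dMPC1* mutant replicate 1 (2.76) or 2 (2.29). The targeted gene, *Mpc1*, also differed between experiments (−5.82, SE 0.49, adjusted p = 5.50e-04). Of all genes tested, 8.71% were called. Other genes of the protease lists passed too, among them *Jon66Cii* (−8.40, SE 0.31), *Jon66Ci* (−5.06, SE 0.21) and *deltaTry* (−3.84, SE 0.60), and were not put through the alternatives. The difference of *Jon66Cii* was larger in size than that of *CG7542* (−6.91). Genes named only for their likeness to 1 of the 5 proteases over the same libraries are given no test here, since they were picked for that pattern.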

How the results depend on the processing

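Directions of all 5 proteases in both experiments held under every alternative. Depth limits *CG7542* in mutants, which rests on 47 and 14 reads. Leaving out 1 library gave 2 to 5 of the proteases called after RNAi (2 without mCherry replicate 1, 5 without *myo1A > dMPC1-RNAi* replicate 1), 3 in mutants without either replicate, and 1 to 2 for the difference between experiments. Counts of all genes ranged from 187 (without mCherry replicate 1) to 1935 (without *myo1A > dMPC1-RNAi* replicate 1) after RNAi, main count 1226. They were 307, 549 and 694 without mCherry replicate 3 and *myo1A > dMPC1-RNAi* replicates 2 and 3. In mutants they were 106 and 85 without *dMPC1* mutant replicates 1 and 2, main count 325. For the difference between experiments they ran from 121 (without mCherry replicate 1) to 1633 (without *myo1A > dMPC1-RNAi* replicate 1), main count 777, with 175, 285, 327 and 264 without mCherry replicate 3, *myo1A > dMPC1-RNAi* replicates 2 and 3 and *dMPC1* mutant replicate 2. The mutant count was 117 with TMM factors, 132 in edgeR, 199 with all libraries in 1 fit and 395 in DESeq2. Without a filter it was 0 in limma, 0 of the proteases among them, with 1842 genes at an unadjusted p under 0.05. Scaling to all reads in genes moved the median of all genes by 0.34 and 0.18 and gave 1996 calls after RNAi (1724 higher, 272 lower, against 627 and 599) and 518 in mutants (304 higher, 214 lower, against 115 and 210), and 223 higher and 513 lower for the difference between experiments (351 and 426 in the main fit). The causes were not tested.

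With replicate number as a block over the pairs that share numbers 1 and 3, 747 genes and 4 proteases were called after RNAi. The numbers pair no samples by label. With each gene's group mean over replicates 1 and 3 taken off, mCherry replicate 1 and *myo1A > dMPC1-RNAi* replicate 1 correlated at −0.21 over genes. No paired analysis was possible in the mutant experiment because the libraries analysed share fewer than 2 numbers.

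Signs changed for some differences that were not called. With scaling to all reads in genes these were *CG6462* (0.21) and *CG11911* (0.092) after RNAi, and *Jon74E* (0.13), *CycT* (0.11) and *betaTry* (0.15) in mutants. Over the fits that left out 1 library, *CG6462* ran from −0.24 to 0.056 after RNAi. In mutants the range was −0.19 to 0.088 for *Jon74E*, −0.23 to 0.18 for *betaTry* and −0.078 to 0.31 for *alphaTry*. For the difference between experiments it was −0.034 to 0.41 for *CG18179* and −0.13 to 0.51 for *Jon99Cii*.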

Other observations

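Outside the genes described above, 3 low-abundance serine protease genes were uneven among libraries of one group. *CG17239*, *CG31681* and *Ser12*, singled out after their values were seen, were high in mCherry replicate 3, *myo1A > dMPC1-RNAi* replicate 1 and *dMPC1* mutant replicate 2. There *CG17239* had 13.5, 107 and 166 normalized counts, *CG31681* had 108, 139 and 376, and *Ser12* had 57.2, 54.9 and 73.6, against at most 2.19 for any of the 3 in the other 5 libraries. None of the 3 was called in either experiment, and the 5 proteases did not follow this pattern.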
